A study of Mus musculus with 10 samples.

Results

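The genes described here are 67 members of 14 families of splicing factors and other RNA-binding proteins, of 18464 genes in the deposited table, 14859 of them protein-coding. The rule took them by gene name, as every protein-coding row whose symbol belongs to the SR protein, hnRNP, PTB, ELAV-like, CELF, RBFOX, NOVA, MBNL, KHDRBS and quaking, Musashi, FMRP and FXR, CPEB, Pumilio or IGF2BP genes. A further 2 rows with matching symbols, a pseudogene and an unconfirmed transcript, are not protein-coding and were left out. All libraries were made from the midbrain region that holds the dopamine neurons (SNpc and VTA) of untreated Aldh1l1-NuTRAP mice, in which cells that use the promoter of Aldh1l1 carry tagged ribosomes and tagged nuclei. The 5 astrocyte fraction libraries, made from RNA bound to the purified ribosomes, were set against 5 input libraries of RNA from all cell types of the same tissue. Both groups carry the same transgenes and neither was given a drug. No label used here gives the age or sex of the mice. Each fraction library shares its number (88, 92, 976, 981 or 982) with 1 input library, and the labels do not say whether a number is 1 animal, so p-values measure the spread between these libraries.

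SR proteins bind exonic enhancers through an RNA-recognition domain and recruit the splicing machinery through arginine- and serine-rich tails, while hnRNP and PTB proteins coat the transcript and often repress exons. Mammalian brain adds cell-type-restricted regulators to these broadly expressed factors: the neuronal ELAV-like, CELF, RBFOX and NOVA proteins set neuronal exon choice and mRNA stability, and quaking does similar work in glia. PTB proteins are the standard example of a paralog switch, with Ptbp1 used by glia and progenitors and Ptbp2 by young neurons. FMRP, CPEB, Pumilio, Musashi and IGF2BP proteins act mostly in the cytoplasm, where they control translation, stability and transport of mRNA.

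The total of expected counts was 3845554 in the fraction library 92, 24479136 to 26924406 in the other fraction libraries and 21812193 to 30878894 in the input. Members took 0.794% to 0.860% of all unscaled counts in the astrocyte fraction and 0.966% to 1.02% in the input. In CPM (read counts scaled to library size, with TMM scaling) their sums overlapped. They were 8510 to 9704 CPM in the astrocyte fraction and 8680 to 9318 CPM in the input. All 10 astrocyte markers examined were called higher, with sums of 19797.5 to 29302.5 CPM in the astrocyte fraction and 3288 to 3615 CPM in the input. All 11 neuronal markers other than the member Rbfox3 were lower, at 1566 to 2041 CPM in the astrocyte fraction and 6718 to 7878 CPM in the input, or 23.4% of the input level, and none was at 0. Oligodendrocyte markers (8 of 8 lower) stood at 15.7% of the input level, with Opalin at 0 in at least 1 fraction library, and microglia markers (8 of 8 lower) at 4.996%, with C1qc and Aif1 at 0. All 4 oligodendrocyte precursor markers were lower, at 14.1% of the input level. Of 7 endothelial and mural markers, 1 was higher and 3 were lower. The 5 choroid plexus and ependymal markers, 0 of which were called, summed to 11673.4 and 2443 CPM in the fraction libraries 976 and 982 and 22.3 to 39.9 CPM in the other fraction libraries, and to 3130 and 672 CPM in the inputs 976 and 982 and 14.7 to 26.4 CPM in the other inputs. In RNA from mixed tissue, fewer cells of a type and less RNA per cell cannot be told apart. Since the fraction is ribosome-bound RNA and the input is not, cell type and ribosome binding cannot be told apart either.

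The families separated by direction. All tested CELF, RBFOX, NOVA and MBNL genes and 3 of 4 ELAV-like genes were lower in the astrocyte fraction, both Musashi genes and quaking were higher, and the SR and hnRNP genes differed in both directions, by less than 2-fold except for Srsf12 (-2.57), Srsf11 (-1.10) and Hnrnpf (1.41). Of the 67 members, all of which passed the filter on low counts, 25 were called higher and 27 lower at an adjusted p under 0.05 (edgeR's quasi-likelihood test, Benjamini-Hochberg over all 17672 genes tested), and 15 were not called. Of all tested genes 70.6% were called, 33.1% higher and 37.5% lower, so the members' shares of 37.3% higher and 40.3% lower lie near the background. Their median log2 fold change was -0.08, and that of all genes was -0.06. At 2-fold or more, 4 members (5.97%) were higher against 16.1% of all genes, and 16 members (23.9%) were lower against 24.3% of all genes. All 5 fraction libraries lay above all 5 inputs for 21 members (31.3%) and below them for 26 (38.8%), against 27.2% and 31.1% of all genes. With libraries scaled to their total counts, 13 members were higher and 39 lower, so that higher genes made up 25% of called members, compared with 48.1% under TMM scaling. That scaling moved the median of all genes to -0.34, and the median of the members measured from the median of all genes was -0.02 under both.

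**Figure D1:**
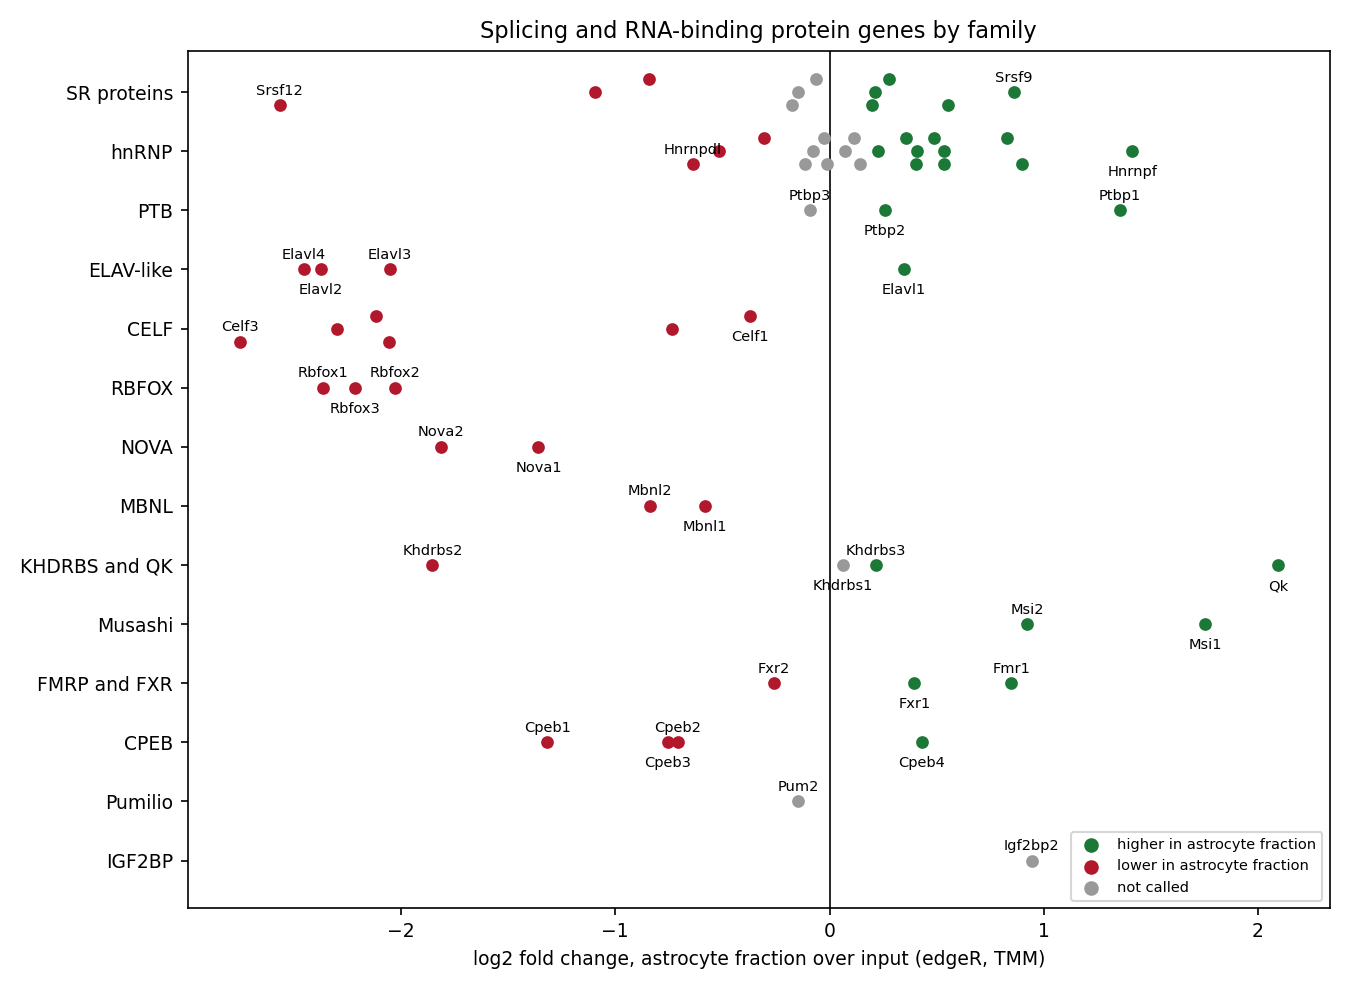
Log2 fold change of 66 of the 67 members (x axis, astrocyte fraction over input) by family (y axis), 1 point per gene; green points were called higher in the astrocyte fraction, red points lower, grey points not called. The CELF, RBFOX, NOVA and MBNL points all lie left of 0, from -2.75 for Celf3 to -0.37 for Celf1, and Qk lies farthest to the right at 2.09.

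Among the PTB genes Ptbp1 rose, Ptbp2 differed by little and Ptbp3 was not called. The per-library values below run in the order 88, 92, 976, 981 and 982 in each group. Ptbp1 (mm10 chromosome 10, 79854427 to 79864771, + strand), whose protein represses neuronal exons, was at 60.1, 56.9, 79.9, 63.3 and 59.9 CPM in the astrocyte fraction, against 25.9, 22.2, 30.8, 23.3 and 22.98 CPM in the input. Every fraction library was above every input, and the log2 fold change was 1.36 ± 0.12 (SE, adjusted p = 3.03e-07), or 2.56-fold. Its count is uncertain in part, since 20.7% of its exon bases overlap a gene on the opposite strand and 46.6% of its transcript matches other gene models at 95% identity or more over at least 100 bases. Such matches, here and below, were searched on both strands, so they can include the bases of an overlapping gene. The neuronal paralog Ptbp2 (chromosome 3, 119718742 to 119784466, - strand) was at 93.6, 95.4, 70.4, 94.8 and 75.9 CPM in the astrocyte fraction, against 69.7, 77.8, 66.1, 79.2 and 65.9 CPM in the input. The groups overlapped, because the fraction libraries 976 and 982 lay within the range of the inputs. The log2 fold change of Ptbp2 was 0.26 ± 0.11 (adjusted p = 0.0366), but it turned to -0.029 with total-count scaling. Its call also ended with DESeq2 (adjusted p = 0.0522), with limma on the authors' log2 values (0.115), when genes below a mean of 5 CPM were removed (0.148), and without any of 6 libraries, the fraction libraries 88, 92 and 981 and the inputs 88, 976 and 982, at adjusted p from 0.0601 to 0.0802. Ptbp3, a PTB gene best known from blood cells, was at 12.5, 13.5, 11.6, 15.1 and 13.4 CPM in the astrocyte fraction, against 13.6, 15.1, 14.5, 13.7 and 13.5 CPM in the input (log2 fold change -0.09, adjusted p = 0.441).

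Ptbp2 carries the exon through which the Ptbp1 protein is known to act on it. In mouse cells that make Ptbp1 protein, exon 10 of Ptbp2 is skipped, which shifts the reading frame and sends the transcript to nonsense-mediated decay (NMD). The exon is 34 bases long and lies at chr3:119724612-119724645 on the minus strand (GENCODE M21 exons on GRCm38). Both joined forms are shown with 30 bases of the neighbouring exons in lower case and the exon in capitals, because the contrast of Ptbp1 with Ptbp2 is read against this event.
Ptbp2 exon-included: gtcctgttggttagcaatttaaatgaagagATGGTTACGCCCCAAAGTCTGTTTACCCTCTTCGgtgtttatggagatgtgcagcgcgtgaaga
Ptbp2 exon-skipped: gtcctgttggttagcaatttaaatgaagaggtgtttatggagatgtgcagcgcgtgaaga
The deposited counts are per gene and hold both forms together, so the use of this exon was not measured. At the level of whole-gene counts the astrocyte fraction held Ptbp1 at 256% and Ptbp2 at 119.6% of the input level.

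The 3 neuronal ELAV-like genes fell about as far as the neuronal markers, and the ubiquitous Elavl1 was slightly higher. Elavl2, Elavl3 and Elavl4 encode HuB, HuC and HuD, which stabilise AU-rich mRNAs in neurons, and Elavl1 encodes HuR, which does so in most cells. Elavl3 was at 83.5, 132, 92.3, 78.1 and 108 CPM in the astrocyte fraction, against 391, 401, 444, 377 and 419 CPM in the input. Elavl2 was at 19.3, 34.6, 19.7, 19.2 and 21.8 CPM in the astrocyte fraction, against 111, 123, 104, 124 and 113 CPM in the input, and its highest fraction library was 92, the shallow one. Elavl4 was at 17.7, 19.4, 15.95, 20.4 and 18.3 CPM in the astrocyte fraction, against 96.4, 107, 89.6, 114 and 95.2 CPM in the input. Each of the 3 genes was lower in every fraction library than in any input, with log2 fold changes of -2.38 ± 0.17 for Elavl2 (adjusted p = 1.12e-08), -2.05 ± 0.14 for Elavl3 (1.42e-08) and -2.45 ± 0.09 for Elavl4 (2.07e-10). These values lie beside a median of -2.44 for the neuronal marker list, and the part of remaining neuronal RNA in them was not tested. Elavl1 was at 59.1, 69.6, 56.3, 63.97 and 62.8 CPM in the astrocyte fraction, against 49.8, 47.7, 50.7, 43.8 and 52.4 CPM in the input. Its groups did not overlap, and its log2 fold change was 0.35 ± 0.07 (adjusted p = 0.00133), a call that ended with total-count scaling (0.06, adjusted p = 0.507). Per kilobase of annotated exon, Elavl3 averaged 14.3 CPM and Elavl1 6.02 CPM in the astrocyte fraction, and in the input Elavl3 averaged 58.99 CPM and Elavl1 4.72 CPM. Elavl3 thus stayed the more abundant of the pair in both groups, while Elavl2 and Elavl4, at 2.76 and 3.41 CPM per kilobase in the astrocyte fraction and 13.9 and 18.6 in the input, were above Elavl1 in the input only.

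All 6 CELF genes were lower, the neuron-enriched Celf3 to Celf6 by about 4-fold or more and the broadly expressed Celf1 and Celf2 by less. CELF proteins bind GU-rich RNA and act on both splicing and stability. Celf4 was at 103, 124, 95.6, 115 and 98.1 CPM in the astrocyte fraction, against 536, 520.3, 491, 591 and 493 CPM in the input. Per kilobase it was the most abundant of them in the input, at 61.3 CPM against 15.5 CPM for Celf1. In the astrocyte fraction Celf4 (12.5 ± 1.42 CPM per kilobase) and Celf1 (11.9 ± 0.666) were alike (SD, n = 5 each). Celf3, with the largest fall of all members, was at 8.65, 12.6, 9.49, 10.2 and 12.7 CPM in the astrocyte fraction, against 71.95, 83.2, 66.5, 65.9 and 70.5 CPM in the input. Celf5 was at 20.8, 22.6, 17.9, 19.1 and 26.4 CPM in the astrocyte fraction, against 88.3, 91.6, 91.8, 90.3 and 100.2 CPM in the input. These 3 genes did not overlap between the groups, and their log2 fold changes were -2.30 ± 0.09, -2.75 ± 0.12 and -2.12 ± 0.10 (adjusted p = 2.38e-10, 6.62e-10 and 1.46e-09). Celf6 had a log2 fold change of -2.06 ± 0.26. Celf1, first known as a CUG-repeat binding protein, was at 99.3, 96.3, 107, 95.1 and 107 CPM in the astrocyte fraction, against 125, 138, 128, 133 and 129 CPM in the input. Celf2 was at 107, 120, 94.03, 118 and 115 CPM in the astrocyte fraction, against 166, 208, 175, 174 and 199 CPM in the input. Both were lower without overlap, at -0.37 ± 0.04 for Celf1 and -0.73 ± 0.09 for Celf2 on the log2 scale (adjusted p = 1.68e-04 and 8.04e-06).

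The 3 RBFOX genes fell together, including Rbfox2, which is also used outside the nervous system. RBFOX proteins bind UGCAUG and shift exon choice by their position around the exon, and Rbfox3 encodes the neuronal antigen NeuN. Rbfox1 was at 24.97, 39.9, 39.99, 30.8 and 47.3 CPM in the astrocyte fraction, against 155, 197, 209.9, 154 and 223 CPM in the input. Rbfox2 was at 49.7, 65.7, 50.1, 48.6 and 52.04 CPM in the astrocyte fraction, against 212, 238, 209.9, 212 and 206 CPM in the input. Rbfox3 was at 30.8, 32.3, 37.3, 27.1 and 44.04 CPM in the astrocyte fraction, against 148, 152, 180.4, 133 and 187 CPM in the input. No fraction library reached the lowest input for any of them, and in both groups library 92 had the highest Rbfox2 value. The log2 fold changes were -2.36 ± 0.20 for Rbfox1, -2.03 ± 0.09 for Rbfox2 and -2.22 ± 0.15 for Rbfox3 (adjusted p = 1.09e-07, 6.16e-10 and 1.39e-08). The ratios of Rbfox2 to Rbfox1 and to Rbfox3, tested below, did not pass the threshold.

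NOVA and MBNL genes were lower by smaller amounts. Nova1 and Nova2 encode neuronal regulators that bind clusters of YCAY. Nova1 was at 42.9, 35.8, 36.3, 40.3 and 36.8 CPM in the astrocyte fraction, against 109, 80.2, 105, 107 and 93.1 CPM in the input. Nova2 was at 27.2, 47.5, 31.5, 28.95 and 36.3 CPM in the astrocyte fraction, against 108, 142, 111, 109 and 123 CPM in the input, and 31.7% of its exon bases overlap a gene on the opposite strand, so its count is uncertain in part. Neither gene's groups overlapped, with log2 fold changes of -1.36 ± 0.10 for Nova1 and -1.81 ± 0.16 for Nova2 (adjusted p = 4.64e-08 and 1.21e-07). Muscleblind proteins, which promote adult splicing patterns and are sequestered by CUG repeats in myotonic dystrophy, are made in many tissues. Mbnl1 was at 48.8, 68.1, 48.2, 58.4 and 49.7 CPM in the astrocyte fraction, against 84.4, 88.8, 75.4, 79.2 and 78.04 CPM in the input. Mbnl2 was at 89.6, 93.9, 104, 93.4 and 92.6 CPM in the astrocyte fraction, against 163, 182, 165, 164 and 173 CPM in the input. Both fell without overlap between the groups, with log2 fold changes of -0.58 ± 0.10 for Mbnl1 (adjusted p = 1.61e-04) and -0.84 ± 0.05 for Mbnl2 (adjusted p = 1.12e-07).

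**Figure D2:**
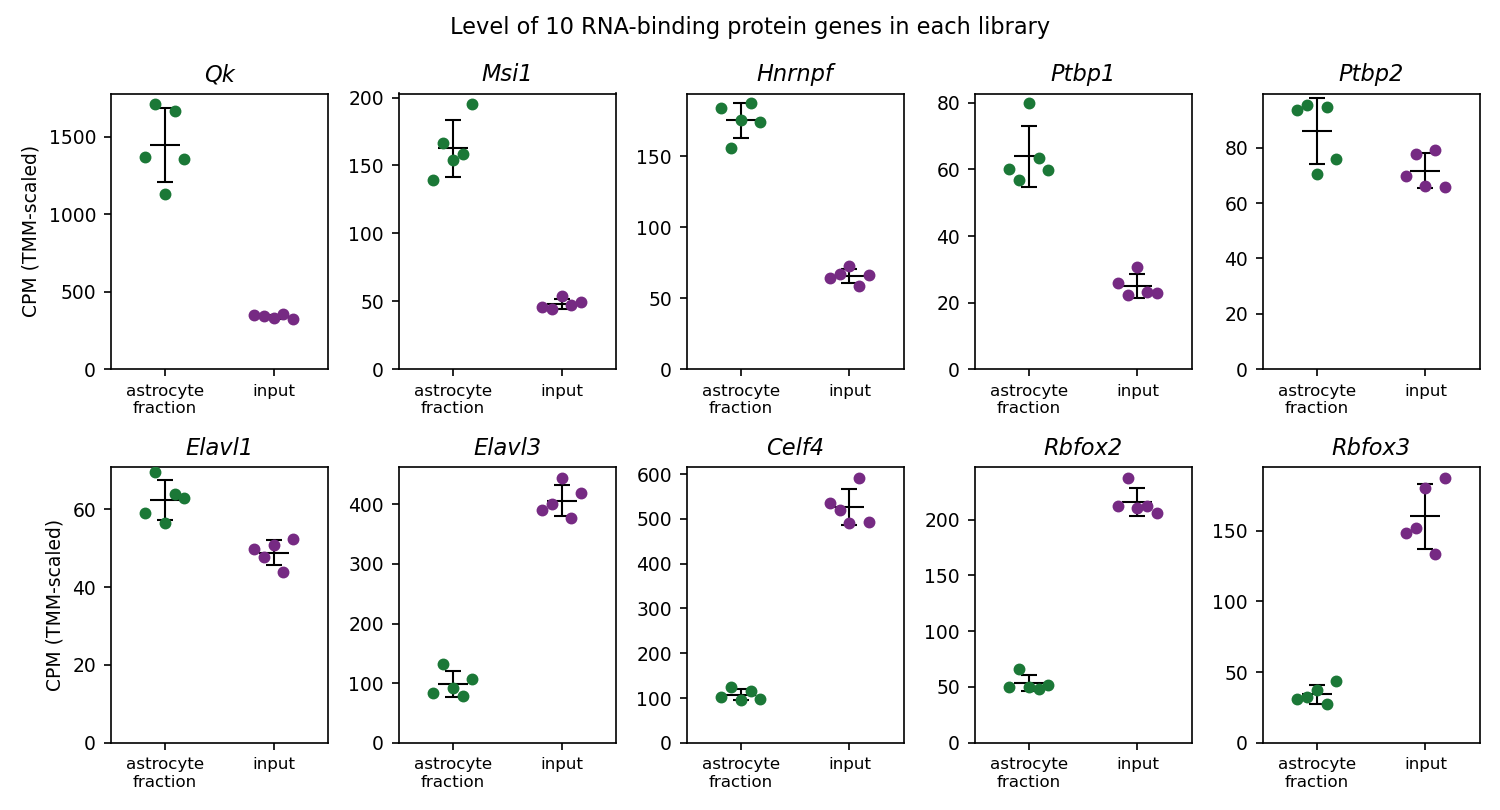
CPM (y axis, TMM-scaled, each panel from 0 on its own scale) of 10 members in the 5 astrocyte fraction libraries (green, left) and 5 inputs (purple, right); bars give the mean and SD. Qk, Msi1, Hnrnpf, Ptbp1 and Elavl1 lie higher in every fraction library, Elavl3, Celf4, Rbfox2 and Rbfox3 lie lower in every one, and the groups of Ptbp2 overlap.

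Quaking and the Musashi genes had the largest called gains outside the hnRNP and PTB families. Qk, the quaking gene, encodes a STAR-family protein of glia that controls splicing, localisation and stability of its targets and is needed for myelination. It was at 1370, 1708, 1129, 1664 and 1357 CPM in the astrocyte fraction, against 347, 341, 327, 355 and 325 CPM in the input. The lowest fraction library was more than 3 times the highest input, and the log2 fold change was 2.09 ± 0.11 (adjusted p = 2.52e-09), or 4.27-fold. Oligodendrocytes are known to express Qk as well, and the 8 oligodendrocyte markers stood at 15.7% of their input level in the same fraction libraries. The part of oligodendrocyte RNA in the Qk values was not tested. Per kilobase of exon, Qk (102 ± 16.8 CPM, SD) and Hnrnpa0 (98.1 ± 2.92 CPM) were alike in the astrocyte fraction, with means that differed by less than the SD of Qk. In the input Qk, at 23.8 ± 0.899 CPM per kilobase, was below Hnrnpa0, at 70.02 ± 2.74 CPM. Msi1, a translational regulator known from neural stem cells and astrocytes, was at 139, 166, 154, 158 and 195 CPM in the astrocyte fraction, against 45.5, 44.5, 53.7, 47.6 and 49.5 CPM in the input. Msi2, its more widely expressed paralog, was at 243, 323, 239, 284 and 253 CPM in the astrocyte fraction, against 129, 146, 143, 158 and 131 CPM in the input. Both were higher in every fraction library, with log2 fold changes of 1.75 ± 0.09 for Msi1 and 0.92 ± 0.10 for Msi2 (adjusted p = 3.73e-09 and 1.59e-06).

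The 3 KHDRBS genes, STAR-family relatives of Qk that regulate neurexin splicing, did not move together. Khdrbs2, which encodes the neuronal SLM1, was at 1.51, 2.93, 1.99, 2.44 and 1.94 CPM in the astrocyte fraction, against 7.89, 8.57, 6.97, 7.19 and 8.07 CPM in the input. That is a low level but a clear separation, with a log2 fold change of -1.85 ± 0.14 (adjusted p = 1.48e-06). Its value in the fraction library 92 rests on 10 counts. Khdrbs1, which encodes the widely expressed Sam68, was at 127, 128, 99.97, 131 and 111 CPM in the astrocyte fraction, against 120.2, 117, 104, 125 and 105 CPM in the input. Its groups overlapped and it was not called (0.06 ± 0.09, adjusted p = 0.554), with -0.23 under total-count scaling and 0.20 without the libraries 976 and 982, each called (adjusted p = 0.0271 and 0.0463). Khdrbs3, which encodes SLM2, was at 104, 115, 97.4, 103 and 99.8 CPM in the astrocyte fraction, against 75.7, 95.1, 95.1, 83.95 and 96.2 CPM in the input. The fraction lay just above the input (log2 fold change 0.22 ± 0.08, adjusted p = 0.0324). This call ended with limma on the authors' log2 values (adjusted p = 0.0871), when genes below a mean of 5 CPM were removed (0.173), and without the fraction library 92 or the inputs 88 or 981 (adjusted p from 0.0505 to 0.0866), and the value was -0.069 with total-count scaling.

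The promoters of Qk, with the largest gain, and Elavl3, the most abundant ELAV-like gene in both groups, differ in base composition and motifs. The 250 bases before the RefSeq start on GRCm38.p6 are shown in the direction of transcription, at chr17:10319362-10319611 for Qk and chr9:22052024-22052273 for Elavl3, both on the minus strand. Capitals mark the motifs searched for, the TATA-box core TATAAA and the CCAAT box on either strand (as TTTATA and ATTGG on the other strand).
Qk promoter: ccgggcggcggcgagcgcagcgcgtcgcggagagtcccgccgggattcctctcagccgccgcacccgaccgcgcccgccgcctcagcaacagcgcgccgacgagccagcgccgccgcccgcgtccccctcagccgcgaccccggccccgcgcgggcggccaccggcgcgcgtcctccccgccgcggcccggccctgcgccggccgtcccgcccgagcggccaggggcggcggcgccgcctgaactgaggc
Elavl3 promoter: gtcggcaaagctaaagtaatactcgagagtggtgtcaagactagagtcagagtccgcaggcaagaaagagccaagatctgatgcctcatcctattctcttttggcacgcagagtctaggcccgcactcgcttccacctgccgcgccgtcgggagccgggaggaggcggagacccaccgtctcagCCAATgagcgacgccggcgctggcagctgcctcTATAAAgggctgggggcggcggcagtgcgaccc
The Qk window was 84.8% G and C with 52 CpG and held neither motif, and the Elavl3 window was 61.6% G and C with 20 CpG and held 1 of each. The windows of Ptbp1, Elavl1 and Ptbp2 were 57.6%, 67.6% and 72.4% G and C, with 17, 31 and 23 CpG. They held 1, 2 and 0 CCAAT and no TATAAA. Ptbp1, called higher like Qk, thus lay below Elavl3 in G and C content. A link of these features to the fold changes was not tested. Windows were found for 57 of the 67 members, and their median G and C content was 67.2%, against 59.6% for 11406 protein-coding genes of the table. TATAAA occurred in 14.04% of the members' windows and 6.47% of all windows, and CCAAT in 42.1% and 36.2%. These are matches of letters in a window and say nothing of binding.

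The 11 SR protein genes went both ways and mostly by less than 2-fold, of which 5 were called higher and 3 lower, and the median was -0.06 on the log2 scale. Over all genes tested, 33.1% were called higher and 37.5% lower. Srsf12, which encodes an SR-like protein of restricted expression, fell most and was at 4.08, 2.05, 2.71, 3.04 and 2.71 CPM in the astrocyte fraction, against 18.1, 17.2, 16.9, 20 and 19.2 CPM in the input. Its groups were far apart (-2.57 ± 0.14, adjusted p = 1.11e-08), though its value in the fraction library 92 rests on 7 counts. Srsf11 and Srsf6 were also lower, at -1.10 ± 0.11 for Srsf11 and -0.84 ± 0.14 for Srsf6, in every fraction library. Srsf9 (0.86 ± 0.09) and Srsf10 (0.55 ± 0.07), an SR-like protein that represses splicing when dephosphorylated, were higher in every fraction library. Srsf1, the founding SR protein, Srsf3 and Srsf4 were called higher by 0.20 to 0.28 on the log2 scale (Srsf1 0.21, Srsf3 0.28, Srsf4 0.20), but had values of -0.072 for Srsf1, -0.0059 for Srsf3 and -0.089 for Srsf4 with total-count scaling, under which 2 SR genes were higher and 6 lower. These 3 calls also ended with limma on the authors' log2 values (adjusted p from 0.0518 to 0.119) and when genes below a mean of 5 CPM were removed (adjusted p from 0.0697 to 0.199). The Srsf1 call also ended without any of 5 libraries, the fraction libraries 92 and 981 and the inputs 88, 976 and 982 (adjusted p from 0.0656 to 0.0897). Srsf2 (-0.06), Srsf5 (-0.18) and Srsf7 (-0.15) were not called, but all 3 were called lower with total-count scaling (Srsf2 -0.35, Srsf5 -0.46, Srsf7 -0.43). Srsf5 was also called lower without the input 982 (-0.25, adjusted p = 0.0449), and Srsf7 when genes below a mean of 5 CPM were removed (-0.24, adjusted p = 0.0297). Summed over the family, SR genes held 938.8 ± 49.97 CPM in the astrocyte fraction and 985 ± 75.2 CPM in the input (SD, n = 5 each). For Srsf2 39.4%, for Srsf3 49.5%, for Srsf4 64.1% and for Srsf5 51.7% of the transcript matches another gene model, so these counts are uncertain. For Srsf4 43.0% of exon bases overlap a gene on the opposite strand, and these shares can hold the same bases.

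Most of the 20 hnRNP genes that were called rose: 10 were higher and 3 lower, and 7 did not pass. The background over all genes tested was 33.1% higher and 37.5% lower. The median was 0.18 on the log2 scale and became -0.10 with total-count scaling (6 higher and 8 lower). Measured from the median of all genes it was 0.25 with TMM and 0.24 with total counts. Hnrnpf, which encodes a G-tract binding protein, had the largest gain and was at 184, 156, 176, 187 and 174 CPM in the astrocyte fraction, against 64.1, 67.3, 72.6, 58.8 and 66.4 CPM in the input. Its fraction libraries were all more than 2 times the highest input (1.41 ± 0.07, adjusted p = 3.63e-09), but 74.4% of its transcript matches other gene models and 26.5% of its exon bases overlap one on the opposite strand. Its relative Hnrnph3 rose by 0.90 ± 0.07, while Hnrnph1 fell (-0.52 ± 0.11) and Hnrnph2 was not called (-0.08). Hnrnpul1 (0.83), Hnrnpk (0.54), Hnrnpm (0.53) and Hnrnpa0 (0.49) were higher in every fraction library. Hnrnpa2b1 (0.41), Hnrnpc (0.40) and Hnrnpab (0.36) were higher as well, calls that ended with total-count scaling, and Hnrnpl (0.22), which was higher too, had a value of -0.062 there. Hnrnpdl fell, at -0.64 ± 0.13 on the log2 scale in every fraction library. Hnrnpa1, the core repressor of the family, fell, at -0.31 ± 0.13 with overlapping groups (adjusted p = 0.0233), a call that ended without the fraction library 976 (-0.24, adjusted p = 0.110) or the input 981 (-0.29, adjusted p = 0.0511). For Hnrnpa1 58.5% and for Hnrnpk 50.5% of the transcript matches other gene models, mostly processed pseudogenes, and for Hnrnpa3, Hnrnpab, Hnrnpc, Hnrnph2 and Hnrnpm the share was 28.9% to 33.7%. The remaining genes that were not called ran from -0.12 for Hnrnpu to 0.14 for Hnrnpll, with Hnrnpd, Hnrnpa3, Hnrnpul2 and Hnrnpr between them, and 5 of the 7 hnRNP genes that were not called became lower calls with total-count scaling, Hnrnpu (-0.40), Hnrnph2 (-0.37), Hnrnpd (-0.31), Hnrnpa3 (-0.30) and Hnrnpul2 (-0.21). Summed over the family, hnRNP genes held 4144 ± 133 CPM in the astrocyte fraction and 3555 ± 123 CPM in the input (SD, n = 5 each).

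Among the FMRP, FXR, CPEB, Pumilio and IGF2BP genes, Fmr1 had the largest called gain. Fmr1 encodes FMRP, the translational repressor lost in fragile X syndrome, and was at 79.8, 103, 66.5, 87.5 and 71.3 CPM in the astrocyte fraction, against 42, 53.7, 39.4, 47.6 and 42.1 CPM in the input. Its relative Fxr1 was at 96.4, 112, 117, 96.6 and 102 CPM in the astrocyte fraction, against 80.1, 84.4, 76.6, 81 and 75.9 CPM in the input. The fraction lay above the input for both, with log2 fold changes of 0.85 ± 0.14 for Fmr1 (adjusted p = 3.89e-05) and 0.40 ± 0.06 for Fxr1 (adjusted p = 3.45e-04), and the Fxr1 call ended with total-count scaling (0.11, adjusted p = 0.213). Fxr2 averaged 162 ± 21.9 CPM in the astrocyte fraction and 195 ± 6.23 CPM in the input (SD, n = 5 each). It was called lower at -0.26 ± 0.09 (adjusted p = 0.0174), but not without the fraction library 88 (-0.23, adjusted p = 0.0515) or the fraction library 981 (-0.20, adjusted p = 0.0553). CPEB proteins control the length of the poly(A) tail and synaptic translation. Cpeb1, Cpeb2 and Cpeb3 were lower in every fraction library, at -1.32 ± 0.17, -0.71 ± 0.10 and -0.75 ± 0.13 on the log2 scale. Cpeb4 was called higher (0.43 ± 0.14, adjusted p = 0.00665), with 1 fraction library (88, at 66.6 CPM) inside the range of the input, and that call ended with total-count scaling (0.15, adjusted p = 0.285). Pum2, a Pumilio gene whose protein binds UGUA elements and represses translation, was not called (-0.15), but was called lower with total-count scaling (-0.43, adjusted p = 6.91e-05) and when genes below a mean of 5 CPM were removed (-0.23, adjusted p = 0.00810). Igf2bp2, the only IGF2BP gene in the table, was low, with 1.28 ± 0.558 CPM in the astrocyte fraction and 0.585 ± 0.389 CPM in the input (SD, n = 5 each). It was not called (0.94 ± 0.33, adjusted p = 0.0906), and was called higher without the fraction library 982 (1.17, adjusted p = 0.0446) or the input 976 (1.26, adjusted p = 0.0347). Its SE is narrowed, since the 0.5 CPM added before log2 is close to the input mean.

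Ratios of paralogs within a library do not depend on how libraries are scaled, and 16 such ratios were compared between the groups. Each is the log2 ratio of 2 genes' expected counts with 0.5 added, tested with an exact two-sided permutation test over the 10 libraries, whose smallest possible p is 0.00794, and adjusted over the 16 ratios. A gene taken as ubiquitous or glial gained on a paralog taken as neuronal in 8 of the 12 pairs assigned this way, lost in 1 and did not pass in 3. The assignment is from general knowledge of the genes, not from these data. Ptbp2 (0.26) and Khdrbs3 (0.22), taken as neuronal, were called higher here, though these calls did not hold in every setting. The 12 pairs are not independent, since genes such as Elavl1 and Celf4 enter more than 1. They also rest on the same counts as the fold changes above. Beside them the neuronal markers stood at 23.4% of their input level, and the part of neuronal RNA in these shifts was not tested. The ratio of Ptbp1 to Ptbp2 was -0.64, -0.74, 0.18, -0.58 and -0.34 in the astrocyte fraction, against -1.42, -1.81, -1.10, -1.77 and -1.52 in the input. The fraction libraries lay above all inputs, with 976 the highest in each group, and the difference was 1.10 ± 0.21 (SE, exact permutation adjusted p = 0.0141). Per kilobase of exon, Ptbp1 averaged 13.5 CPM and Ptbp2 9.38 CPM in the astrocyte fraction, whereas in the input Ptbp1 averaged 5.28 CPM and Ptbp2 7.82 CPM. Not divided by length, Ptbp1 averaged 64 CPM and Ptbp2 86.03 CPM in the astrocyte fraction, so their order there depends on the annotated lengths. The Ptbp1 count is also uncertain in part, as given above. The ratio of Ptbp3 to Ptbp2 was lower, with a difference of -0.35 ± 0.09 (exact permutation adjusted p = 0.0254), with overlap.

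The largest shifts were those of Elavl1 against its neuronal paralogs. The ratio of Elavl1 to Elavl4 was 1.74, 1.85, 1.82, 1.65 and 1.78 in the astrocyte fraction, against -0.95, -1.17, -0.82, -1.37 and -0.86 in the input, and that of Elavl1 to Elavl2 was 1.61, 1.01, 1.52, 1.74 and 1.53 in the astrocyte fraction, against -1.16, -1.37, -1.03, -1.50 and -1.11 in the input. In both pairs the lowest fraction library lay more than 2 log2 units above the highest input, and the differences were 2.80 ± 0.11 and 2.72 ± 0.15. The ratio of Elavl1 to Elavl3 was -0.50, -0.93, -0.71, -0.29 and -0.78 in the astrocyte fraction, against -2.97, -3.07, -3.13, -3.10 and -3.00 in the input, a difference of 2.41 ± 0.12, again with the groups far apart. Celf1 gained on Celf4 by 1.93 ± 0.12 and on Celf5 by 1.75 ± 0.11, Celf2 gained on Celf4 by 1.57 ± 0.11, and Khdrbs1 gained on Khdrbs2 by 1.91 ± 0.18. All 7 of these shifts, none with overlap, had an exact permutation adjusted p of 0.0141.

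Other ratios moved less. Rbfox2 against Rbfox1 differed by 0.35 ± 0.19 (exact permutation adjusted p = 0.127), Rbfox2 against Rbfox3 by 0.21 ± 0.18 (0.278) and Khdrbs1 against Khdrbs3 by -0.16 ± 0.12 (0.278), none of which passed the threshold. These tests do not use the title numbers. Within each number Rbfox2 was higher relative to Rbfox1 in all 5 pairs of libraries, by 0.19 to 0.54, and relative to Rbfox3 in all 5, by 0.10 to 0.37. Khdrbs1 against Khdrbs3 was lower in 4 of 5. Of the pairs with no broad or glial gene set against a neuronal one, Msi2 lost ground to Msi1 by -0.83 ± 0.12 without overlap (exact permutation adjusted p = 0.0141). Fxr1 lost ground to Fmr1 by -0.46 ± 0.14 with overlap (exact permutation adjusted p = 0.0346). The Fxr1/Fmr1 call ended without any of 5 libraries, the fraction libraries 92 and 981 and the inputs 88, 976 and 982 (exact permutation adjusted p from 0.0529 to 0.0693). Nova1 against Nova2 (0.45 ± 0.24, exact permutation adjusted p = 0.127) and Mbnl1 against Mbnl2 (0.26 ± 0.12, exact permutation adjusted p = 0.0635) did not pass, although each was higher in all 5 pairs, by 0.28 to 0.64 for Nova1/Nova2 and by 0.023 to 0.58 for Mbnl1/Mbnl2. An exact sign-flip test over 5 pairs cannot give a two-sided p below 0.0625, which 15 of the 16 ratios reached, so these paired differences carry no call. Nova1 against Nova2 passed without the fraction library 92 (0.60, exact permutation adjusted p = 0.0346), and Mbnl1 against Mbnl2 without the fraction library 976 (0.33, exact permutation adjusted p = 0.0115).

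**Figure D3:**
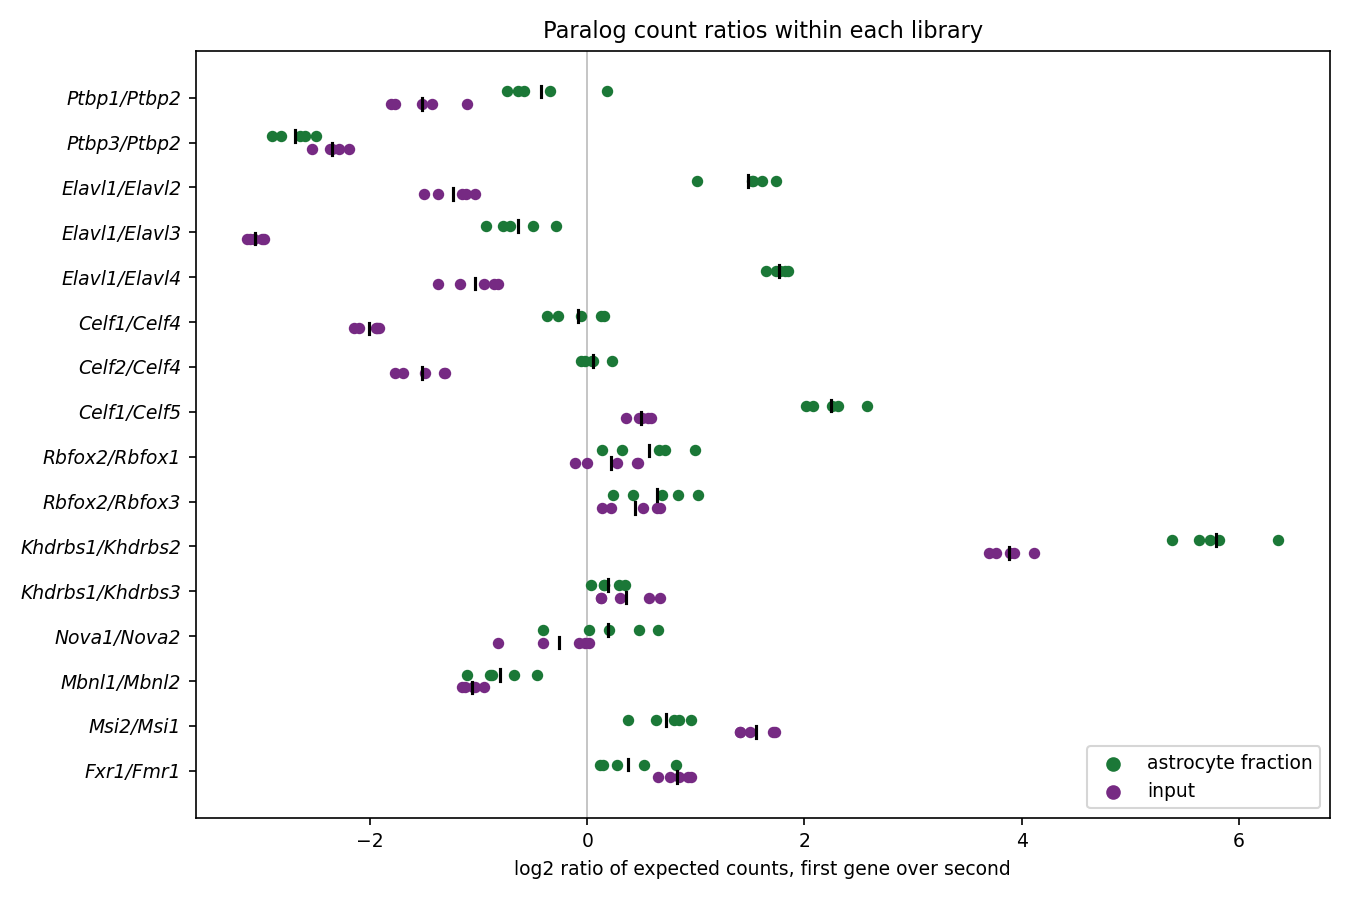
Log2 ratio of expected counts of 2 paralogs within each library (x axis, first gene over second) for 16 pairs (y axis), with 5 astrocyte fraction libraries (green, upper row) and 5 inputs (purple, lower row); black ticks are group means. The 3 ratios of Elavl1 to its neuronal paralogs are far apart between the groups, with differences of 2.41 to 2.80, while the ratios of Rbfox2 overlap; the position of a single ratio against 0 also depends on gene length.

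Other genes of RNA processing were described through 4 lists, none of which was tested as a set. For each list the background is all genes tested, of which 33.1% were called higher and 37.5% lower. With TMM scaling more core spliceosome genes were higher than lower: of 34 small nuclear ribonucleoprotein and U2 factors, 19 were higher and 6 lower, and 9 did not pass. The median of that list was 0.29 on the log2 scale and became 0.01 with total-count scaling (8 higher and 12 lower). Measured from the median of all genes it was 0.36 with TMM and 0.35 with total counts. Sf3b6 (0.95), Snrpg (0.999), a ring protein of the Sm core, and Prpf19 (0.55) were higher. Snrnp70, which encodes the U1-specific 70K protein, averaged 81.3 ± 12.4 CPM in the astrocyte fraction and 332 ± 34.1 CPM in the input (SD, n = 5 each), a log2 fold change of -2.02. Snrpn, the imprinted Sm protein of neurons (-1.15), and Sf3b1 (-0.68) were also lower. The number of lower genes in this list was 3 without the fraction libraries 88 or 976 or the input 982.

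Of 19 kinases of SR proteins and SR-related proteins, 18 were lower and 1 was higher, with a median of -0.98. Under total-count scaling the counts were the same, with a median of -1.26. Luc7l, which encodes a U1-associated protein (-1.42), Srrm3, a neuronal microexon regulator (-2.61), and Srrm1, a splicing coactivator (-1.56), were lower, and Tra2b, which activates exons rich in GAA (0.45), was higher. Of 30 other RNA-binding proteins tested, not all of them nuclear splicing factors, 13 were higher, 11 lower and 6 not called. Their median was 0.09, and -0.20 with total-count scaling, but measured from the median of all genes it was 0.15 under both. The 3 with the smallest adjusted p among the higher genes were Zfp36l2, which marks AU-rich mRNA for decay, at 200.2 ± 32.97 CPM in the astrocyte fraction and 32.5 ± 4.57 CPM in the input (2.61), Rbpms2 (2.81) and Rbm38 (2.71). Among the lower genes they were Rbm25 (-1.08), Pcbp4 (-0.86) and Rbm5 (-1.15). Of 25 cytoplasmic granule proteins and partners of FMRP, 9 were higher, 8 lower and 8 not called (median 0.16), and with total-count scaling 3 were higher and 12 lower (median -0.12). Measured from the median of all genes, the median of this list was 0.22 under both. Here the FMRP-binding paralogs moved apart: Cyfip1 averaged 229.8 ± 43.2 CPM in the astrocyte fraction and 53.6 ± 3.62 CPM in the input (2.10), whereas Cyfip2 averaged 119.6 ± 11.4 CPM in the astrocyte fraction and 631 ± 43.8 CPM in the input (-2.40). The paralogs Stau1 (0.49) and Stau2 (-1.62), which bind double-stranded RNA and transport mRNA, also had opposite signs. Ybx1 (0.90) was higher and Atxn2l (-1.14) lower. Neuronal markers stood at 23.4% of their input level beside all of these values, and their part was not tested.

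**Figure D4:**
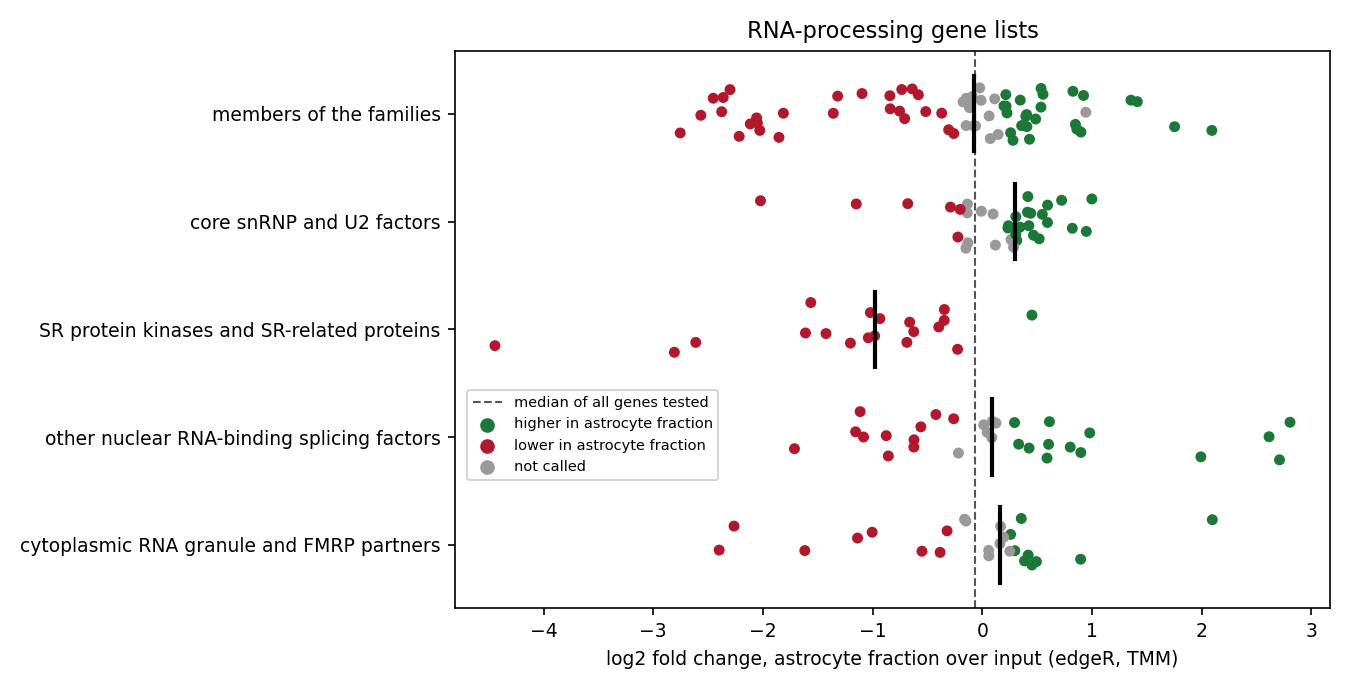
Log2 fold change (x axis, astrocyte fraction over input) of each gene in the members of the families and in 4 RNA-processing lists (y axis); green points were called higher in the astrocyte fraction, red lower, grey not called, black ticks are list medians and the dashed line is the median of all genes tested. All but 1 of the 19 SR kinases and SR-related genes lie left of 0, with a median of -0.98, and the core spliceosome list has a median of 0.29.

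Many members are annotated with a transcript form that is a target of NMD, a way in which SR and hnRNP proteins are known to limit their own levels. GENCODE M21 lists such a form for 30 of the 67 members (44.8%) and for 4021 of 14843 protein-coding genes of the table found there (27.1%). Among the 11 SR genes it does so for 9, all but Srsf10 and Srsf12. Among the 6 CELF genes, Celf2, Celf4 and Celf6 have one, and no ELAV-like, RBFOX, NOVA, MBNL or Musashi gene does. Since counts are per gene, the share of such forms was not measured.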

How the data were processed

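PolyA RNA was turned into libraries by the NEB Ultra II protocol, 25 ng of total RNA each, per the labels' protocols. The authors deposited 1 table with expected counts per gene (raw, not whole numbers) and normalized log2 values for each library. CASAVA 1.8, DESeq and mm10 appear in the submitters' processing notes, without roles. No source used here gives the aligner, counting tool or strand setting, so overlapping genes are uncertain. The table holds 0 value columns without a mapped sample.

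Expected counts were rounded and tested in edgeR 4.0.16 (R 4.3.3) with TMM scaling, filterByExpr (minimum count 10, keeping 17672 of 18464 genes) and the robust quasi-likelihood test, with Benjamini-Hochberg adjustment over all genes tested. Log2 fold changes are astrocyte fraction over input, prior count 2. Their SE come from log2 of CPM plus 0.5 over 5 libraries a group, which narrows the SE of low genes such as Srsf12 and Khdrbs2. The biological coefficient of variation was 0.229 in common. The procedure was tested on simulated data. A count of 0 allows 3 counts, or 0.0912 to 0.136 CPM, and 0.880 CPM in the fraction library 92; such limits cover counting error only. Lengths (all annotated exons of a gene joined), overlaps and transcript forms come from GENCODE M21 (mm10), promoters from RefSeq (GRCm38.p6).

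After removal of group means, libraries with the same title number had correlations of 0.189 to 0.493, all over 0.1, and a block by title number was run as an alternative. The main tests of genes and ratios, and their SE, did not use the numbers. Libraries with different numbers had correlations of -0.317 to 0.302, and the fraction library 982 correlated more with the input 976 (0.302) than with the input 982 (0.189). Other alternatives were DESeq2 1.42.0, DESeq2 size factors, total counts, limma 3.58.1 on the authors' log2 values, other filters, and leaving out libraries. Per-library values are given for genes of the 16 ratios, Qk and the 5 members with the largest change in each direction. From each list up to 3 called genes per direction with the smallest adjusted p are named. Members and lists were chosen with earlier results of these data known. The values of 1 member, which the counts include, are not reported here.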

Additional observations from a re-analysis of the deposited data

Results flagged for a closer look

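Among 29 members and 16 ratios, 90 groups of 5 libraries were examined for 1 library far from the other 4, and 4 were found, where chance gives about 5% of groups. In the astrocyte fraction, Elavl2 was at 34.6 CPM in library 92, with 19.2 to 21.8 CPM in the others. Rbfox2 was at 65.7 CPM in that library, with 48.6 to 52.04 CPM in the other fraction libraries. The input library 92 was also the highest for Rbfox2, at 237.5 CPM against 206 to 212 CPM in the other inputs. Ptbp1 was at 79.9 CPM in the fraction library 976, with 56.9 to 63.3 CPM in the others. All 3 genes kept their calls when either library was left out.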

How the results depend on the processing

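The counts of 25 higher and 27 lower members were 20 to 27 and 26 to 30 over all settings other than total-count scaling, which gave 13 and 39. Leaving out each library in turn gave 22 to 26 higher and 26 to 28 lower. With the title number as replicate block, 25 were higher and 27 lower and no member's call changed. Total-count scaling reversed Hnrnpl (-0.062), Hnrnpul2 (-0.21), Khdrbs1 (-0.23), Khdrbs3 (-0.069), Ptbp2 (-0.029), Srsf1 (-0.072), Srsf3 (-0.0059) and Srsf4 (-0.089), and moved the median of all genes from -0.06 to -0.34. It also gave 8 higher and 12 lower core spliceosome genes and 3 higher granule genes, and without the libraries 976 and 982, 3 core spliceosome genes were lower. Counts for the lists were added after the data were seen.

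Without both libraries 92 the ratios rest on 4 against 4 libraries, which allow fewer splits. The calls of Ptbp1/Ptbp2 (1.11), Elavl1/Elavl2 (2.80), Elavl1/Elavl3 (2.48) and Elavl1/Elavl4 (2.75) ended there, at an exact permutation adjusted p of 0.0508. At the same value ended those of Celf1/Celf4 (2.02), Celf2/Celf4 (1.64), Celf1/Celf5 (1.81), Khdrbs1/Khdrbs2 (1.98) and Msi2/Msi1 (-0.85). Those of Ptbp3/Ptbp2 (-0.32) and Fxr1/Fmr1 (-0.44) ended at 0.0762. The part of the smaller number of splits in these changes was not tested. Leaving out 1 library at a time, the difference ran from -0.57 to -0.39 for Fxr1/Fmr1, from 0.31 to 0.60 for Nova1/Nova2 and from 0.17 to 0.33 for Mbnl1/Mbnl2, and each crossed the threshold. Lower core spliceosome genes ran from 3 to 6. An offset of 2 changed no ratio's call. Without the libraries 976 and 982 the ratios have 3 libraries a group, for which the smallest exact p is 0.1, so only their values were compared. A paired test of the ratios by title number, added after the data were seen, left the differences as they were, with SE such as 0.063 for Rbfox2/Rbfox1 and 0.058 for Nova1/Nova2 in place of 0.19 and 0.24, and its smallest exact p of 0.0625 allows no call. Depth limits the fraction library 92, at 3845554 counts.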
